A study of Mus musculus with 8 samples.

Results

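The CGs described here were more methylated in the liver of a DBA female than in that of a B6 female. They were selected on the methylation levels of these 2 mice, with at least 10 reads in both and a DBA minus B6 level above 50 percentage points on the autosomes. Of 859630 CGs tested, 445 met this rule (0.0518%), while 4368 (0.508%) met the same rule in the opposite direction, with B6 higher. Each strand of a CG counted as 1 site, and the 445 sites lay at 440 CG positions. As the rule used the levels of the female parents, their difference is a description and was not tested.

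Methylated CGs carry a methyl group on the cytosine of both strands, which maintenance methyltransferases copy after replication. In mammalian tissues most CGs are methylated, and dense groups of CGs at gene start sites are usually not. Inbred strains can differ in methylation at a site because the DNA nearby differs or because the mark itself was inherited or set differently, and in an F1 mouse both parental chromosomes share a nucleus.

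The livers came from 8 mice, 1 female and 1 male each of B6 (C57BL/6J), DBA (DBA/2J), BXD (C57BL/6JxDBA/2J, with a B6 mother) and DXB (DBA/2JxC57BL/6J, with a DBA mother), all aged 16 weeks and fasted for 16 h. Reduced representation bisulfite sequencing (RRBS) reads the share of methylated reads at cytosines near MspI cut sites. Levels are percentages of reads, and each mouse is its own sample, so intervals cover counting error only.

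The libraries held 2903539 to 9386346 cytosines with at least 10 reads. The library labelled B6 male stands apart. Of its reads sorted by SNPs to a strain, 16.1% carried the DBA tag, compared with 0.338% in the B6 female. The main calls between the male parents are therefore also given by region. Other results with the B6 male cover all regions unless stated. The other parents and F1 mice carried the DBA tag in 99.1% to 99.5% and 46.6% to 47.7% of sorted reads. To check the tissue, markers of liver cells were read at their start sites. CGs within 1 kb of the start of the hepatocyte gene Apoh were methylated at 1.05% to 4.07% over the mice with data. The other hepatocyte markers with data were higher in part, with Fgb at 15.1% to 39.6%, Hnf4a at 20.7% to 48.5% and Trf at 0% to 22.2%, and 6 of the 10, Alb and Apoa1 among them, had no CG with 10 reads near the start. Of markers of other liver cells, Pecam1 was at 86.7% to 100%, Krt19 at 58.3% to 75.2%, Col1a1 at 22.4% to 48.5% and Kdr at 5.47% to 17.0%, so these levels do not separate cell types.

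Sequence around 6 groups on which the results turn was read from NCBIM37 (mm9), plus strand. They are an intronic group that separated the strains in all mice (Plac8), an intronic group with reads sorted in an F1 mouse (Zfp704), a group in a coding exon and intron (Hspg2), an intronic group in a region where the B6 male carries DBA tags (Gsr), and groups whose F1 levels lay close to one female parent (Gad1-ps and Shisa6). Capitals mark the CGs of the list, and a CG left in lower case was not in it.
Plac8, chr5:100986056-100986129: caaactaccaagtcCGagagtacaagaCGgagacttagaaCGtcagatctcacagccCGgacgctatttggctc
Zfp704, chr3:9523401-9523572: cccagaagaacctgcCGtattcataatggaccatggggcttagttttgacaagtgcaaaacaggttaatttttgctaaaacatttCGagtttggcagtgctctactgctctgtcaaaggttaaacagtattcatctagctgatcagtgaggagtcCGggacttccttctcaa
Hspg2, chr4:137114756-137114898: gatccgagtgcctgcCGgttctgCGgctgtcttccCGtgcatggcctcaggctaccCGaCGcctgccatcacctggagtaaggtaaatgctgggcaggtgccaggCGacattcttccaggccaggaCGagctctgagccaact
Gsr, chr8:34776759-34776930: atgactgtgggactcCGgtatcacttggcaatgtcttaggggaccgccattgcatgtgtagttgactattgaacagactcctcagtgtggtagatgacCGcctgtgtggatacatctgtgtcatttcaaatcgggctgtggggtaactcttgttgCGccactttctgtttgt
Gad1-ps, chr10:99062636-99062680: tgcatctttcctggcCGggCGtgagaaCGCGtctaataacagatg
Shisa6, chr11:66381315-66381404: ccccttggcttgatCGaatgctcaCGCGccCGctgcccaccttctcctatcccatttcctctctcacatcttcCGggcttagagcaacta

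Each window ran from the first to the last CG of the list in its group, with short flanks, so its count of other CGs depends on that choice. Groups not printed here varied, from all 5 CGs in the list at Meox1 to 4 of 7 at Cyp4a12a and at Ralgapb. Zfp704, Gad1-ps and Shisa6 had no other CG in the window, and Plac8 and Hspg2 had 1 each, next to 4 and 7 CGs of the list. Gsr had 2, next to 3. The GC share was 43.0% at Zfp704, 48.8% at Gsr, 51.4% at Plac8, 53.3% at Gad1-ps, 56.7% at Shisa6 and 62.2% at Hspg2.

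The 445 CGs were rarely bare in B6. Their level in the B6 female had a median of 22.2% (quartiles 11.8% and 32.1%, highest 48.0%), and in the DBA female it had a median of 84.0% (quartiles 71.9% and 92.0%, lowest 50.9%). Only 16 of the 445 (3.60%) were at 0 in the B6 female, whereas 2500 of the 4368 CGs higher in B6 (57.2%) were at 0 in the DBA female. The 2 lists are not mirror images in this respect, which is a description since both were selected on these levels. Reads of both strains were aligned to mm9, and the paper states that its reference genome came from a B6 mouse. CGs were read at positions of this reference, so the 2 strains were not treated alike. The part of the reference in the sizes of the 2 lists and in the CGs at 0 was not tested.

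The difference between the female parents had a median of 56.7 points. It lay between 50 and 55 points at 172 CGs, above 70 points at 62 and above 80 points at 20. The member just inside the threshold differed by 50.03 points, 24 CGs just outside differed by exactly 50 points, and the next lay at 49.98. A further 331 CGs differed by 45 to 50 points. Depth behind these levels was modest, with a median of 45 reads in the B6 female and 22 in the DBA female, compared with 72 and 45 reads over all CGs tested. At least 20 reads in both mice were found at 207 members, and at least 50 at 117.

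In the 6 mice that the rule did not use, median levels of the members lay between those of the female parents. The median was 27.3% in the B6 male (217 CGs with 10 reads) and 54.7% in the DBA male (154 CGs). It was 52.9% in the BXD female (262 CGs), 52.6% in the BXD male (390), 53.5% in the DXB female (238) and 52.5% in the DXB male (250). The 4 F1 medians lay from 52.5% to 53.5%, and the median of the DBA male was close to them and below that of the DBA female. At the 154 CGs covered in both DBA mice, the male was lower at 126, by a median difference of -23.1 points. At the 142 CGs covered in both B6 mice in regions with under 10% DBA tags, the B6 male differed from the female by a median of 3.24 points. Members were selected for high levels in the DBA female and low levels in the B6 female, and the part of this selection in the lower DBA male levels was not tested.

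**Figure D1:**
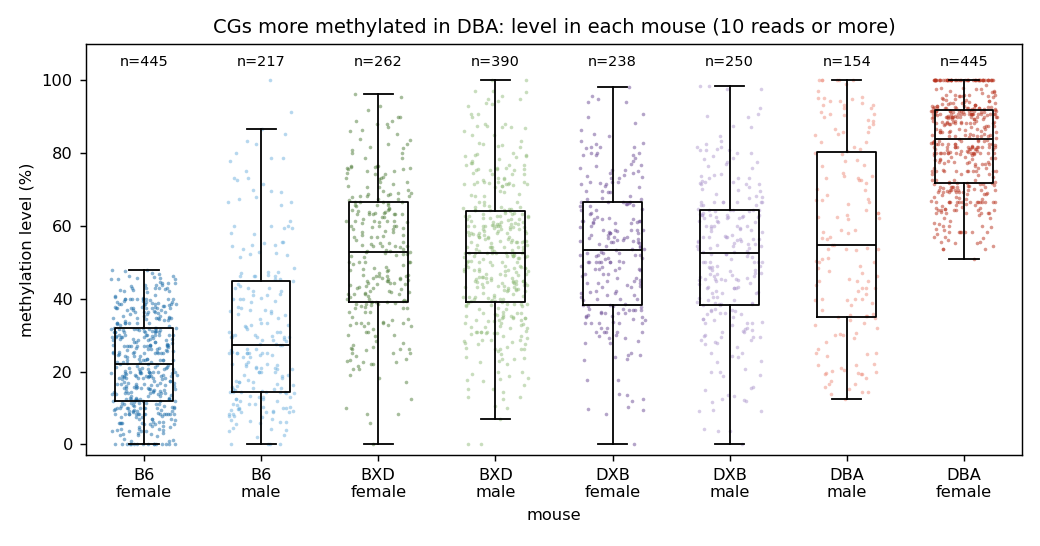
Methylation level (%) of the CGs more methylated in DBA in each of the 8 mice, for CGs with at least 10 reads in that mouse (n above each column); points are CGs, boxes show the median and quartiles, and whiskers reach the farthest value within 1.5 box lengths. The B6 female and DBA female chose the CGs and do not overlap by construction, and the 4 F1 medians lie between 52.5% and 53.5%.

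The CGs occurred in groups. Joined where neighbours lay within 100 bp, the 445 CGs formed 291 groups, of which 212 were single CGs and 79 held 2 or more. The 79 clusters held 233 members (52.4%), compared with 29.2% of the CGs higher in B6, and 18 clusters held 4 or more, with 13 in the largest. CGs around the members leaned the same way. Of 1104 other tested CGs within 100 bp of a member, 520 (47.1%) were higher in DBA by over 20 points and 44 were higher in B6 by as much, and their median difference was 18.2 points. Over all CGs tested, 1.60% were higher in DBA by over 20 points. These CGs share reads and mice with the members, so they are no independent test.

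The opposite strand of the same CG was not part of the choice, and the part of the rule in a smaller difference there was not tested. It was tested at 57 members, where it was higher in DBA at 42, by over 30 points at 20, and was itself in the list at 10. The difference on the opposite strand had a median of 19.7 points and went down to -37.3 points. Reads of the 2 strands were counted separately.

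The list was poor in gene start sites. Of the members, 58 (13.0%) lay within 1 kb of the start of a protein-coding transcript, compared with 36.0% of all CGs tested and 3.94% of CGs higher in B6. Coding exons held 68 members (15.3%), compared with 8.14% of all CGs tested and 7.51% of those higher in B6. Introns held 150 (33.7%), and 156 (35.1%) were intergenic. Noncoding genes and UTRs held 6 and 7. The 200 bp around a member held a median of 6 CGs, and 15.3% of members had 12 or more, compared with 33.9% of all CGs tested. An MspI site held 29.0% of members, close to the 29.9% over all CGs tested, and 9.18% of those higher in B6. Reads that carried a SNP were found in a female parent at 20.2% of members, compared with 5.89% of all CGs tested and 53.8% of those higher in B6. Shares of both lists and of all CGs are descriptions, and neighbouring CGs are not independent.

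**Figure D2:**
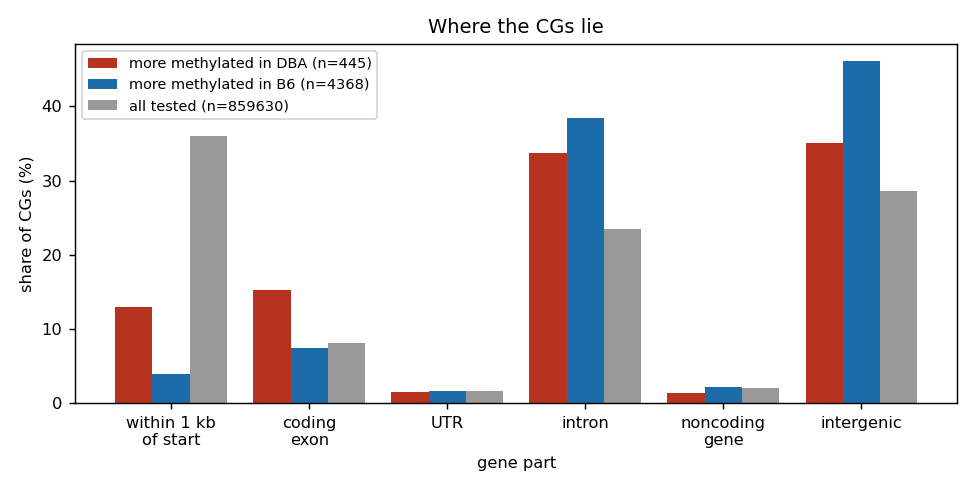
Share (%) of CGs in each gene part, for CGs more methylated in DBA (red), CGs more methylated in B6 (blue) and all CGs tested (grey), each CG being counted once. The red bar is above the grey bar for coding exons (15.3% and 8.14%) and below it near start sites (13.0% and 36.0%).

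By chromosome, the list ranged from 19.6 to 77.4 members per 100000 CGs tested, on chromosomes 13 and 4. The megabase with the most groups started at 101 Mb of chromosome 11, with 13 members in 6 groups, followed by that starting at 52 Mb of chromosome 7, with 10 members in 5 groups.

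A cluster with reads in all 8 mice lay in an intron of Plac8, which encodes a small cysteine-rich protein first described in placenta. Its 4 CGs spanned 44 bp on the minus strand. At chr5:100986071 the level was 7.45% in the B6 female (exact 95% binomial interval 3.05% to 14.7%, 94 reads) and 89.9% in the DBA female (83.4% to 94.5%, 129 reads). In the mice not used to choose it, the same CG was at 14.4% in the B6 male (9.52% to 20.5%, 174 reads) and 90.9% in the DBA male (58.7% to 99.8%, 11 reads). The F1 mice were at 46.6% (BXD female), 50.5% (BXD male), 50.4% (DXB female) and 57.3% (DXB male). Counting error aside, the levels of B6, F1 and DBA mice did not overlap at this CG or at the other CGs of the cluster. With 11 reads in the DBA male, its interval overlapped that of the DXB male at chr5:100986071 and at some other CGs of the cluster. The mean over the 4 CGs was 11.4% and 16.8% in the B6 mice, 86.3% and 90.9% in the DBA mice, and 46.6% to 57.6% in the F1 mice. All 4 CGs passed the test between the male parents, by 63.0 to 85.6 points. No sorted reads covered them in F1 mice.

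Zfp704, a zinc finger gene, held 4 members at 3 CG positions over 142 bp of an intron. At chr3:9523416 the level was 37.0% in the B6 female (30.1% to 44.3%, 189 reads) and 32.2% in the B6 male (24.6% to 40.5%, 143 reads). The DBA mice were at 92.9% (female, 85.3% to 97.4%, 85 reads) and 94.3% (male, 84.3% to 98.8%, 53 reads). The F1 mice lay between, at 67.9% (BXD female), 61.2% (BXD male), 56.9% (DXB female) and 63.1% (DXB male). The BXD male was the only F1 mouse with sorted reads here. In it, 92.3% of 156 DBA-sorted reads and 31.3% of 166 B6-sorted reads were methylated (adjusted p = 4.56e-30, exact test on reads of this mouse alone). Each chromosome was therefore close to the level of its parent strain within the same liver. The other CGs with sorted reads gave 87.8% and 18.2%, and 86.0% and 27.9%.

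Hspg2 encodes perlecan, a heparan sulfate proteoglycan of basement membranes. Its 8 members (5 in a coding exon, 3 in an intron, over 113 bp) had a mean of 17.4% ± 6.04 in the B6 female and 86.6% ± 12.7 in the DBA female (SD over CGs). The B6 male was at 10.8% ± 4.21 over 6 CGs, and the F1 mice were at 52.0% to 60.9%. The DBA male had at most 5 reads, so no test between the male parents was possible at these CGs.

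Mean levels of the other clusters in gene bodies were also intermediate in F1 mice. The mean of a mouse covers the CGs with 10 reads in it, which can be fewer in F1 mice than in the female parents. At Gipc1 and Meox1, F1 mice other than the BXD male had 2 of the 5 CGs. At Sphk2, a sphingosine kinase, 6 CGs of a coding exon (chr7:52968767-52968885) were at 13.9% and 79.9% in the female parents, with 10 to 13 reads in the DBA female. Means were 37.4% to 54.6% in 3 F1 mice, over 4 CGs only in the BXD female and the DXB male. In the BXD female (54.6%, SD 26.3 over CGs) single CGs ranged from 22.2% to 78.6%. On F1 chromosomes, 2 of the 4 Sphk2 CGs tested were called. At Gipc1, a PDZ-domain adaptor, 5 CGs (chr8:86185140-86185287) were at 24.0% and 82.7%, and at 52.0% to 61.4% in F1 mice. Meox1, a homeobox gene, held 5 intronic CGs (chr11:101740391-101740487), at 7.32% ± 2.52 (B6) and 83.8% ± 11.1 (DBA) in the female parents and 50% to 60.4% in F1 mice. At Meox1, the B6 male stood at 40.7% ± 13.4 over 3 CGs, and 42.1% of its sorted reads in the surrounding 1 Mb carried the DBA tag. The part of these tags in that level was not tested.

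Further groups in gene bodies had less data. Glipr2 held 5 intronic CGs (chr4:43988498-43988544) at 31.5% and 91.1% in the female parents and 67.5% ± 2.87 in the BXD male, with no reads in the other 5 mice. Zfp697, another zinc finger gene, had 4 CGs of a coding exon (chr3:98231198-98231251) at 9.27% and 70.8% in the female parents and at 22.4% and 56.9% in the male parents, where none of the 4 passed the test. Its F1 mice ranged from 21.8% (DXB female) to 48.7% (BXD female).

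Outside genes, 6 CGs 14.7 kb from the start of Cdc42, a small GTPase of the cytoskeleton, lay at chr4:136928247-136928341. With over 100 reads at each CG in both female parents, they were at 20.4% ± 2.14 (B6) and 78.6% ± 3.31 (DBA) and 39.3% to 56.8% in F1 mice. The B6 male was at 20.7% ± 4.82. A group of 6 CGs 16.9 kb from 1700106J16Rik (chr11:88090511-88090748) was at 28.1% and 90.5% in the female parents. It was at 53.0% to 66.9% in F1 mice, of which all but the BXD male had 10 reads at 2 CGs only. In both males, 2 CGs of the group had 10 reads. They were at 67.3% and 26.3% in the B6 male and at 100% and 88.9% in the DBA male (18 reads), and 1 of the 2 passed the test between the male parents. Near Ralgapb, a subunit of a Ral GTPase-activating complex, 4 CGs (chr2:158222942-158223018) were at 27.4% and 87.7% in the female parents. The 3 CGs with 10 reads in both males were at 24.6% and 77.0% there, and 1 was called. On F1 chromosomes 1 of the 4 was called, at 51.8 points, and the others differed by 9.31, 22.5 and 30.9 points. Over all reads the BXD male was at 55.6% ± 16.3 over the 4 CGs. The other F1 mice had 10 reads at 1 CG only (chr2:158222942), at 81.0% to 82.7%, where the BXD male was at 75.9%. The remaining 3 clusters with 4 or more CGs, beyond the 15 with the most members or the largest differences, include both groups of Unkl described with the gene starts.

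F1 mice did not always lie midway. At Gad1-ps (start 156 kb away), 4 CGs within 15 bp were at 30.9% ± 2.66 in the B6 female, 15.7% ± 8.73 in the B6 male and 90% ± 1.64 in the DBA female. The F1 mice were at 87.3% ± 0.943 (BXD female), 94.2% ± 0.652 (BXD male), 94.7% ± 0.796 (DXB female) and 98.0% ± 0.451 (DXB male), with at least 117 reads at each CG. All 4 F1 mice thus lay with the DBA female and apart from both B6 mice. The DBA male had 3 reads, and no sorted reads were found in the surrounding 1 Mb of the B6 male.

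At 4 CGs 17.9 kb from Cyp4a12a, a cytochrome P450 that hydroxylates fatty acids, the BXD male was at 94% ± 4.75 (99 to 100 reads), next to 97.9% in the DBA female (12 reads) and 28.6% in the B6 female (28 reads). No other mouse had reads there. The 5 CGs 41.9 kb from Shisa6, an auxiliary subunit of glutamate receptors, showed the reverse. They were at 71.8% ± 10.5 in the DBA female (17 reads) and 9.19% ± 6.11 in the B6 female, and the F1 mice lay nearer to the B6 female, at 22.6% (BXD female), 15.6% (DXB female) and 13.3% (DXB male). The B6 male was at 45% ± 19.1 over 4 CGs with 10 reads, above these F1 mice, and 47.4% of its sorted reads in the surrounding 1 Mb carried the DBA tag. The part of these tags in that level was not tested.

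The largest cluster, 13 CGs within 100 bp near the start of Grip1 (chr10:118891201-118891300), differed between the mice of 1 strain. Grip1 encodes a PDZ protein that binds glutamate receptors. The cluster was at 8.46% ± 5.91 in the B6 female, with 10 to 12 reads, and at 83.7% ± 6.21 in the DBA female, with 35 reads. In the DBA male it was at 21.0% ± 6.49 over 11 CGs, and the F1 mice were at 61.1% to 82.5%. The B6 male had at most 7 reads. The DBA male therefore lay with the B6 female, and the F1 mice lay nearer to the DBA female. Counts at these CGs come from the same few reads and are not independent.

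**Figure D3:**
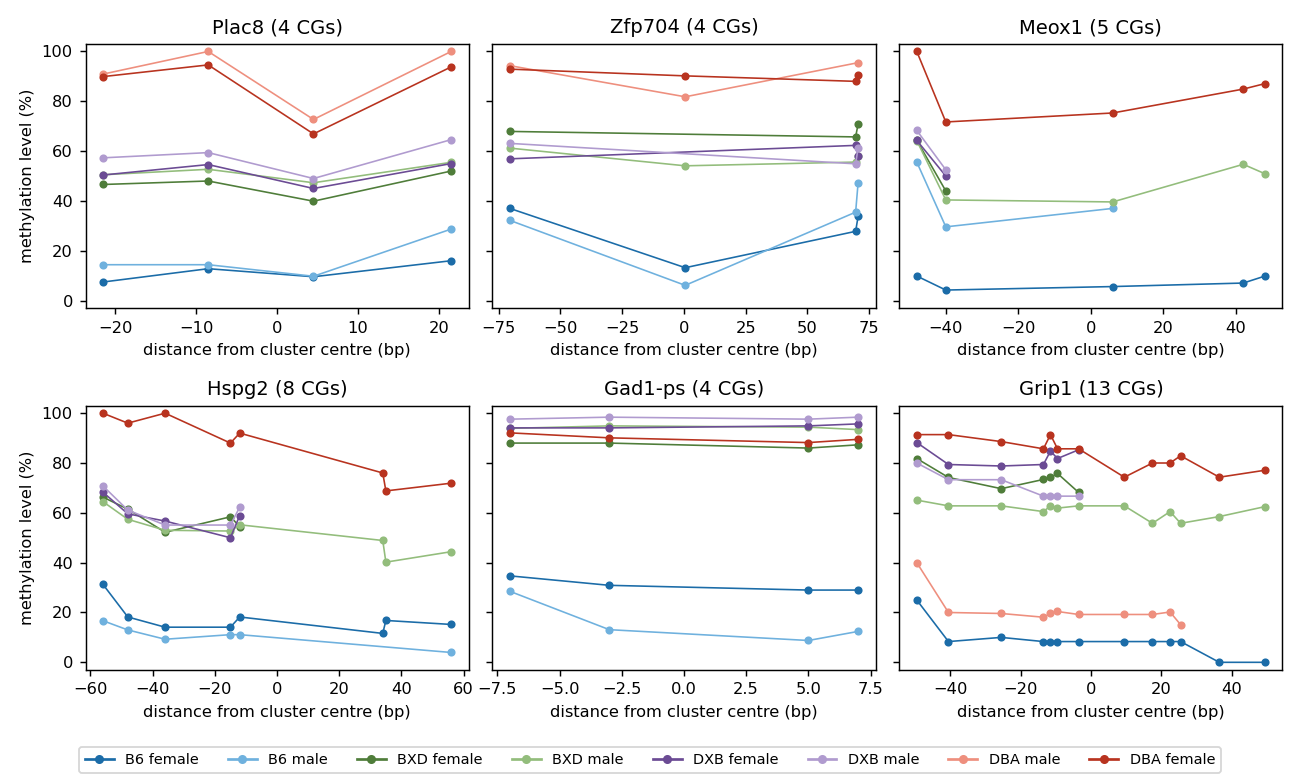
Methylation level (%) at the CGs of 6 clusters against distance from the cluster centre (bp), with 1 line per mouse and points only where that mouse had at least 10 reads. At Plac8 and Zfp704 the F1 mice lie between the B6 and DBA mice, and at Hspg2 between the B6 mice and the DBA female. At Gad1-ps the 4 F1 mice lie with the DBA female, and at Grip1 the DBA male (21.0% on average) lies near the B6 female.

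Near gene starts, 13 of the 58 members belonged to Grip1 and 8 to Unkl, a RING and zinc finger gene, in 2 groups of 4. At chr17:25359091, Unkl was at 13.4% and 5.81% in the B6 mice, 66.7% and 80% in the DBA mice (42 and 15 reads), and 41.3%, 27.6%, 33.3% and 23.9% in the BXD female, BXD male, DXB female and DXB male. Counting error aside, the levels of B6, F1 and DBA mice did not overlap at this CG. Ldlrad3 and Pafah2 had 3 members each and Arap1 had 2, and 29 more genes had 1. These starts are of any annotated transcript, and those of Unkl and Ldlrad3 lie 34 kb and 73 kb from the annotated gene start.

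The deepest single members outside clusters were thinly covered in the DBA male, and 1 of the 5 had 10 reads in both males. At Ostc, a subunit of the oligosaccharyltransferase complex, a CG 18 kb away (chr3:130394345) was at 1.03% (B6 female, 195 reads), 0% (B6 male, 179 reads, interval up to 2.04%), 55.5% (DBA female, 128 reads) and 28.1% (DBA male, 13.7% to 46.7%, 32 reads). The F1 mice were at 32.8%, 18%, 27.8% and 20.7% in the order BXD female, BXD male, DXB female and DXB male. At the metalloprotease Adam33 (chr2:130882240), the female parents were at 14.2% and 68.5%, the B6 male was at 32.8%, and the F1 mice ranged from 19% to 38.7%, overlapping the B6 male. Nrxn3, a neurexin, and Rnf144a, a ubiquitin ligase, had reads in the BXD male alone among the other mice. That mouse was at 72.5% at Nrxn3 (20.8% and 87.3% in the female parents) and at 28.6% at Rnf144a (9.38% and 63.0%). At a CG 46.5 kb from Lemd2, which encodes a protein of the nuclear envelope, the female parents were at 10.5% and 62.3% and the BXD male at 48.3%.

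The male parents offered a comparison in mice the rule did not use. A CG was called where the level of each mouse lay outside the exact 95% interval of the other and differed by over 50 points. Of 97 members with 10 reads in both males, 18 (18.6%) were called higher in the DBA male and 0 higher in the B6 male. Over all 316662 CGs tested, 348 (0.110%) were called higher in DBA and 997 higher in B6. Calls higher in B6 were thus rare over all CGs, and 0 among 97 members is not a result about the members. CGs of a group can share reads, so these calls are not independent. The difference was above 0 at 83 of the 97, with a median of 25.2 points (from -40.1 to 85.6). By Fisher's exact test with Benjamini-Hochberg adjustment over all CGs, 36 members (37.1%) were higher in the DBA male, compared with 0.377% overall. Over all CGs tested in the males, the difference had a median of 0 points (quartiles -1.76 and 2.26). Thus the direction held at most members, and few passed the 50-point cut again. Members were selected by that cut in the females, and the part of this selection in the smaller male differences was not tested.

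The calls were also counted by region of the B6 male. Where under 10% of its sorted reads within 1 Mb carried the DBA tag, 17 of 69 members (24.6%) were called and 63 were higher in the DBA male, with a median of 30.4 points. Between 10% and 90%, 0 of 11 were called (median 23.6 points). With at least 90% DBA tags, 0 of 5 were called (median 14.3 points), and the B6 male was at 29.6% to 86.7%. In regions with no sorted reads 1 of 12 was called, and 6 of the 12 were above 0 (median 5.84 points). Over all CGs tested in the same 4 classes, 0.0955%, 0.173%, 0.166% and 0.0881% were called higher in the DBA male. The few members outside the first class do not allow the classes to be told apart by counts.

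Glutathione reductase (Gsr), which keeps glutathione in its reduced form, lies in a region with at least 90% DBA tags in the B6 male. At chr8:34776774 in an intron, the B6 female was at 24.3% (16.8% to 33.2%, 115 reads) and the DBA female at 97.8% (92.4% to 99.7%, 92 reads). The library labelled B6 male was at 100% (interval 88.1% to 100%, 29 reads). The DBA male had 4 reads, so this CG was not in the comparison of the males. The F1 mice were at 78.7%, 60.3%, 75.8% and 70.1% (BXD female, BXD male, DXB female, DXB male). The B6 male thus lay with the DBA female and not with the B6 female at this site. At the Gsr CG that was tested between the males (chr8:34776915), the B6 male was at 59.4% and the DBA male at 73.7%, with 26.1% and 80.5% in the B6 and DBA females, and it was not called. At the first CG, 98.5% of 260 DBA-sorted reads and 36.5% of 222 B6-sorted reads of the F1 mice were methylated (adjusted p = 1.3e-54, exact test stratified by mouse).

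**Figure D4:**
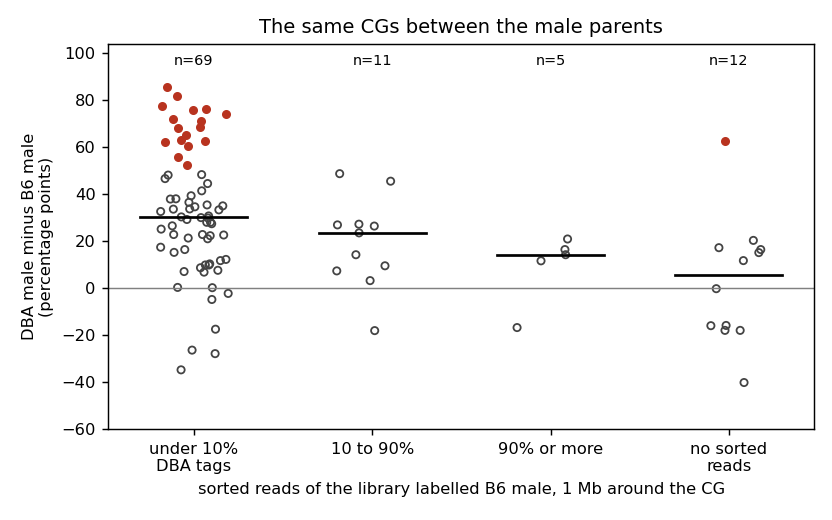
Difference in methylation level between the DBA male and the B6 male (percentage points) at the 97 members with 10 reads in both, split by the share of DBA-tagged reads of the library labelled B6 male in the surrounding 1 Mb; filled points were called higher in the DBA male and lines are medians. All but 1 of the 18 called CGs lie in regions with under 10% DBA tags, which also hold 69 of the 97 CGs.

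With at least 20 reads in both males, 6 of 53 members (11.3%) were called, and the share over all CGs at this depth is not given here. The 4 CGs of Plac8, with 11 DBA male reads, and the CG near Ralgapb, with 18, then dropped out. By depth in the female parents, among members with 10 to 20 reads in the less covered female, 3 of 49 (6.12%) were called in the males, with a median of 11.8 points. With 20 to 50 reads it was 6 of 26 (23.1%, median 31.4 points), and with 50 or more 9 of 22 (40.9%, median 47.4 points). Over all CGs in these 3 classes, 0.0992%, 0.0793% and 0.0821% were called. The first class held 238 of the 445 CGs. Of the 348 CGs higher in DBA between the males, 219 were tested in the females and 18 of these were in the list (8.22%). The difference between the females at the 219 had a median of 4.40 points and was above 0 at 147. The 18 called CGs lay at 10 genes, with 4 each at Plac8 and Unkl, 2 each at Zfp704 and Ldlrad3, and 1 each at 1700106J16Rik, Fam171b, Gpam, Klf11, Maml2 and Ralgapb.

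Sorted reads of F1 mice compare the 2 chromosomes in the same liver. Counts of DBA-sorted and B6-sorted reads were compared by an exact test stratified by mouse, two-sided, with Benjamini-Hochberg adjustment over 55928 CGs. Reads are the units of this test, so its p-values cover counting error and not variation between mice. Of 75 members with at least 10 sorted reads of each strain, 57 (76.0%) were higher on the DBA chromosome (adjusted p below 0.05) and 0 were higher on the B6 chromosome. Over all CGs tested, 1.93% were higher on the DBA chromosome and 6.71% on the B6 chromosome. The 75 CGs belonged to 52 groups, and CGs of a group can share reads. The DBA-sorted level had a median of 74.6% and the B6-sorted level 29.3%, and the difference had a median of 41.4 points (from -9.58 to 83.8), with 73 of 75 above 0.

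Individual F1 mice gave similar medians. The difference was 40.6 points in the BXD female (35 CGs with at least 5 sorted reads of each strain, 33 above 0), 40 in the BXD male (66 CGs, 63 above 0), 42.8 in the DXB female (33 CGs, 32 above 0) and 43.9 in the DXB male (35 CGs, 30 above 0). Of the 24 CGs with such reads in all 4 mice, 21 were higher on the DBA chromosome in each of the 4. The BXD male, the deepest library, supplied the sorted reads at many sites. Without it 28 of 35 members (80%) were called, and the share over all CGs without it is not given here.

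**Figure D5:**
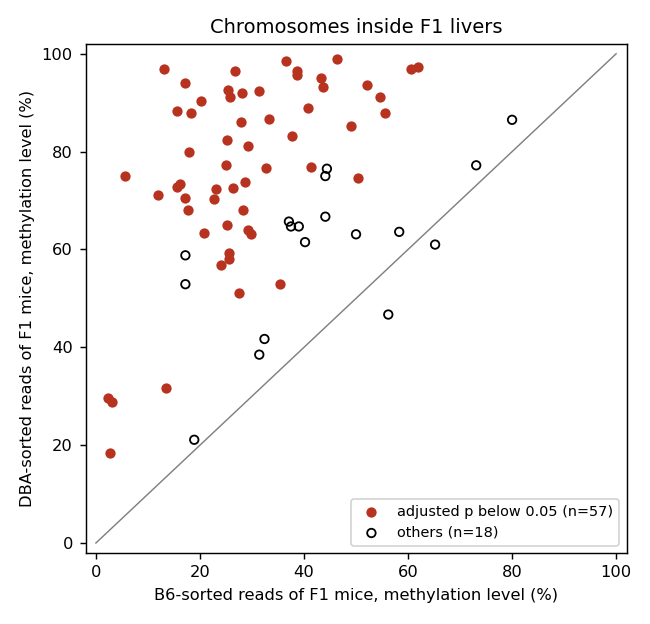
Methylation level (%) of DBA-sorted reads against that of B6-sorted reads, added over the 4 F1 mice, at the 75 members with at least 10 sorted reads of each strain; the line marks equal levels. The 57 filled points passed the exact test at adjusted p below 0.05 and all lie above the line, as do 16 of the 18 open points.

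The members with the most sorted reads varied in how close each chromosome lay to its parent strain. At Sfn, which encodes the 14-3-3 sigma protein, a CG 686 bp from the start (chr4:133157397) was at 26.9% and 46.2% in the B6 mice and 80.4% and 73.2% in the DBA mice. Of the sorted reads of the B6 male within the surrounding 1 Mb, 47.3% carried the DBA tag, and their part in its level was not tested. The F1 mice were at 55.4%, 39.1%, 48.1% and 54.0% in the order BXD female, BXD male, DXB female and DXB male. The chromosomes were at 73.8% of 282 DBA-sorted reads and 28.6% of 343 B6-sorted reads (adjusted p = 3.38e-29, exact stratified test). DBA and B6 chromosomes in F1 mice thus lay close to the female parents.

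H2-DMb2, which takes part in peptide loading of MHC class II, behaved otherwise. A CG 3.4 kb from it (chr17:34276826) was at 8.33% and 10% in the B6 mice, 60.6% (female) and 32.9% (male) in the DBA mice. In the F1 mice it was at 22.1%, 24.8%, 24.6% and 15.4% in the same order. The DBA chromosome was at 31.6% and the B6 chromosome at 13.4% (adjusted p = 9.12e-06, exact stratified test), so the DBA chromosome lay near the DBA male and below the DBA female. In 3 of the F1 mice it was at 35.5% to 36.2% on the DBA chromosome, and in the DXB male both chromosomes were at 15.4%. At Hsd17b14, a hydroxysteroid dehydrogenase, the DBA-sorted and B6-sorted levels were 52.9% and 35.3% (adjusted p = 0.0185, exact stratified test), next to 88.9% in the DBA female (27 reads) and 54.8% in the DBA male. The DBA chromosome was higher at Hsd17b14 in 3 of the 4 F1 mice, while the DXB female was at 30% (DBA, 20 reads) and 36.8% (B6, 19 reads).

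The remaining CGs chosen for sorted reads were intronic. At Ccdc11 the DBA and B6 chromosomes were at 87.9% and 55.6%, and the female parents at 95.7% and 38.3%. At Lmf1, a lipase maturation factor, they were at 51.2% and 27.5%. At Casz1, a zinc finger gene with 12 reads in the DBA female and 22 in the B6 female, the chromosomes were at 77.2% and 73.1% (adjusted p = 1, exact stratified test), against 100% and 45.5% in the parents.

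By depth in the female parents, 11 of 24 members with 10 to 20 reads were called on F1 chromosomes, 18 of 19 with 20 to 50 reads and 28 of 32 with 50 or more. Over all CGs in these 3 classes, 1.34%, 2.41% and 2.62% were called. In all, 149 members could be tested in males or on F1 chromosomes, and 71 were called in at least 1 of these comparisons, against 0.406% of all CGs also tested in the females. Both comparisons were possible at 23 members, and 4 were called in both, against 13 of 14659 CGs (0.0887%). These were named after their values were seen. They are 2 CGs of Zfp704, a CG near Ralgapb and an intronic CG of Fam171b, which was at 92.6% on the DBA chromosome and 25.3% on the B6 chromosome.

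Levels of F1 mice over reads of all classes lay mostly between those of the female parents. The rule chose both ends of that gap, so a CG with no difference between the strains would often lie between them too, and these values are a description. Of 192 members with at least 10 reads in every F1 mouse, 185 had a mean level between those of the female parents. The mean had a median of 53.4%, as had the midpoint of the female parents, and its position in the gap from B6 to DBA had a median of 49.0% (quartiles 40.4% and 62.0%). The SD over the 4 F1 mice had a median of 7.53 points, compared with 6.42 points over all CGs with F1 means of 20% to 80%.

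Direction of the cross made no difference that could be detected. With limma on the levels of 2 BXD and 2 DXB mice, 0 of 192 members passed an adjusted p of 0.05 (lowest adjusted p = 0.619), as did 0 of all 479316 CGs tested (0%). At an unadjusted p below 0.05 there were 14 members (7.29%), compared with 6.57% of all CGs. The DXB minus BXD difference had a median of -0.711 points and ranged from -24.8 to 44.2. Sensitivity was low, as limma recovered 8 of 200 simulated differences of 60 points among 50000 CGs.

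Gene families were counted within 10 kb. Of 18557 protein-coding genes with a tested CG, 287 (1.55%) had a member. Zinc finger genes of the Zfp prefix had 6 of 335 (1.79%), and transporters of the Slc prefix had 6 of 344 (1.74%). The MHC genes had 2 of 29, H2-DMa and H2-DMb2, which share the CG given above. Of the cytochrome P450 genes 1 of 81 had a member, Cyp2c29, where the female parents were at 26.1% (B6) and 90% (DBA) and the BXD male at 72.9% at an intronic CG. The Ugt (13 genes), Gst (21), Serpin (37), Olfr (379) and Vmn (136) prefixes had 0. No family was tested against the rest.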

How the data were processed

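RRBS libraries of 8 livers were sequenced, and per the paper's methods the authors cut DNA with MspI, aligned reads to mm9 with BS Seeker (version not given in the sources used here), and sorted reads with a SNP to the B6 or DBA chromosome. The authors deposited raw counts per cytosine and read class, split by methylation state, and the level as a fraction from 0 to 1. Their tables of comparisons, which hold means, p-values and difference scores, were not used. Counts of all classes were added here, and levels are percentages of these sums. Positions were counted from 1 in NCBIM37 (mm9), and genes came from GENCODE for that assembly.

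The members, gene lists and tests were chosen with earlier results of these data known. The rule for named genes took up to 15 clusters with at least 4 members, by number of members and then difference. It also took the 5 deepest single members and the 10 with the most sorted reads in F1 mice, counted as the smaller of the B6 and DBA sums. The gene was the protein-coding gene holding the CG, otherwise that with the nearest start.

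Male parents were compared by the study's interval rule (1 mouse a side), F1 chromosomes by an exact conditional test stratified by mouse, and crosses by limma 3.58.1 in R 4.3.3, after tests on simulated data. Fisher's exact test, minimum reads, difference, strands, region class and each F1 mouse were varied. Python 3.11.15 was used with scipy 1.17.1 and numba 0.67.0 for tests, pandas 2.3.3 and numpy 2.4.6 for tables, and matplotlib 3.10.9 for plots. Mean depth was 38.7 to 87.6 reads per cytosine with a read. A single read changes a level by 10 points where depth is 10. Intervals are exact (Clopper-Pearson) and, like the p-values of the exact tests on reads, cover counting error only. With 1 mouse of each strain and sex, variation between mice of 1 strain is confounded with sex. SNP positions and expression data were not analysed here. The result for 1 marker gene is not reported here.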

Additional observations from a re-analysis of the deposited data

How the results depend on the processing

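The number of CGs higher in DBA rested on depth and threshold. It was 1130 with at least 5 reads, 207 with 20 and 117 with 50, and 3891 above 30 points and 62 above 70. It stayed within 1.5 times 445 with reads without a SNP (355) and strands added (408). The study's interval rule also gave 445, which it must at 10 reads and 50 points. The male parents gave 348, of fewer CGs tested (0.110% against 0.0518%), and 18 CGs were in both lists. The share of members in clusters was 43.1% within 50 bp.

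Between the male parents, the 18 calls became 6 of 53 with at least 20 reads, 36 by Fisher's exact test, 39 above 30 points and 0 of 5 in regions with at least 90% DBA tags. On F1 chromosomes, 27 members passed with a difference above 50 points as well, and leaving out each mouse gave 28 to 56, the lowest without the BXD male (28 of 35). The cause was not tested, apart from the fewer CGs tested where fewer reads remained. For these settings, shares over all CGs are given above only for Fisher's exact test and the region class. The F1 median of 53.4% ranged from 52.6% to 53.6% without each mouse. The count of members called between BXD and DXB was 0 with a sex term, on the logit scale and without each F1 mouse, which shows nothing of stability, since 2 against 2 mice had little power and leaving out 1 had less.

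Mice of different groups were not paired by replicate number, as the labels carry none that ties them together. Sex, shared by the groups, was tried as a term for BXD against DXB as given above, with 0 of 192 members called. The chromosomes of the F1 mice were compared within each mouse, which is a paired comparison.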

Other observations

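In 7 of the 192 members with reads in every F1 mouse, the F1 mean lay at or beyond a female parent. These were named after their values were seen. At 4 of them, those of Gad1-ps, the F1 means were 93.2% to 93.9%. The fifth with an F1 mean above DBA was a CG in a coding exon 3.5 kb from the start of Hsp90ab1, a chaperone gene, at 20% in the B6 female (10 reads), 81.2% in the DBA female (16 reads), 93.3% in the DBA male and 85.2% ± 5.50 in the F1 mice (SD, n = 4). There the DBA chromosome was at 86.5% of 178 sorted reads and the B6 chromosome at 80% of 75 (adjusted p = 0.211, exact stratified test).

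At the other two the mean of the F1 mice lay below the B6 female, although single F1 mice were above it. At a CG 29.8 kb from Lrrc32, the B6 female was at 16.9% (65 reads), the DBA female at 90% (10 reads), and the F1 mice at 21.4%, 0%, 9.68% and 4.17% in the order BXD female, BXD male, DXB female and DXB male. At Slc24a4, 338 bp from the start, the female parents were at 6.25% and 58.3% (16 and 12 reads), the DBA male was at 35.5% (110 reads), and the F1 mice were at 0%, 10%, 0% and 9.09% in the same order, with a mean of 4.77% ± 5.52 (SD, n = 4). The DBA female had 10 to 16 reads at these 3 single CGs.

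On F1 chromosomes, 2 of the 75 members were not higher on the DBA chromosome, a CG of 1700008O03Rik at 61.0% and 65.2% and a CG near Anxa1 at 46.7% and 56.2% for DBA-sorted and B6-sorted reads. Neither difference passed the exact stratified test (adjusted p = 1 for both), and the DBA female had 11 and 14 reads there.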
